A study of Mus musculus with 36 samples.

Results

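The genes that make cholesterol, take it up, move it within the cell and control its supply through SREBP were followed in ribosome-bound and unbound messages of mouse forebrain in 3 behavioural states. The list held 31 genes, and its members were found by name: a gene counted as measured where the platform annotation of at least 1 array probe set gives that gene alone. This held for 29 of the 31 genes. Acat2 and Soat1 were not analysed here. All 29 were among the 13924 genes tested, of 18193 genes with such a probe set. The members had 63 probe sets in all, and for the 19 with more than 1 the probe set with the highest mean over the 36 arrays was used.

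All animals were adult heterozygous Cnp–eGFP-L10a mice on a C57BL/6 background, including the sleep animals that serve as baseline. In these mice a green fluorescent fusion of the ribosomal protein L10a is made under the control of Cnp, a gene of myelinating cells, so that ribosomes of oligodendrocytes can be pulled down together with the messages they carry. Animals without the transgene were not analysed here. The forebrain of each of 18 animals gave 2 arrays, 1 of the precipitated (bound) fraction and 1 of the supernatant (unbound) fraction, which by the labels holds neurons and other glia. Each state had 6 animals. Sleep deprived animals had been awake of their own accord for most of the night and were then held awake for 4 h of the light period with new objects. Waking animals were killed in the dark phase between 3 and 5 am, having been awake for at least 70% of the 6 to 7 h before. Sleep animals were killed in the light phase between 3 and 5 pm, having slept at least 75% of an equally long window. Waking and sleep thus differ in clock time as well, and state and time of day cannot be told apart here. No clock hour of killing is on hand for the sleep deprived animals, so the hour may also differ between sleep deprivation and sleep.

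Values are log2 probe-set signals, so a difference of 1 is a doubling, and they were used as deposited. A gene is called where its adjusted p from limma, corrected over all 13924 genes, was below 0.05. Where fractions or states are said not to overlap, the share of all genes with that trait was not counted. Group means of the arrays lay at 5.91 to 5.93 log2 in the bound and 6.34 to 6.41 log2 in the unbound groups, with standard deviations of only 0.00293 to 0.00994 within a group, and the sources used here do not say whether groups were normalized apart. Oligodendrocyte enrichment was checked with marker genes, of which 10 of 10 for myelin were higher in bound than in unbound arrays. By contrast, 8 of 8 neuron, 8 of 8 astrocyte, 6 of 6 microglia and 2 of 2 endothelium markers were lower. Only markers among the genes tested are counted, which leaves out some listed ones, such as 3 of the 5 for endothelium. Neuron messages were still present in the bound fraction: their markers had a mean level of 10.68 log2 in bound and 12.03 log2 in unbound arrays of sleep animals. Of 5 markers of oligodendrocyte precursors, 1 was higher and 4 were lower. Across all genes tested, 25.5% were called higher and 58.1% lower. In 3 animals (waking 3, waking 5 and sleep deprived 11) Xist stood above the Y-linked genes in both arrays, and in the other 15 it stood below them. The number of animals limits the precision of every value.

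Nearly all cholesterol in the brain is made there, because lipoproteins of the blood hardly enter it, and oligodendrocytes need large amounts for myelin. The synthesis genes are switched on by SREBP transcription factors, which are made as precursors in the membrane of the endoplasmic reticulum. Scap carries them to the Golgi apparatus for cleavage when sterols are scarce, and Insig1 and Insig2 hold Scap back when sterols are plentiful. Insig1 is itself an SREBP target gene, and with the synthesis enzymes it makes up the classical sterol-responsive set.

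Promoter windows are shown for 4 members on which the state comparisons turn or which define the set: Hmgcs1, an early enzyme, Dhcr7 and Cyp51, late enzymes, and Insig1. RefSeq windows on build GRCm38.p6, running from 250 bases before to 50 bases after a transcript start, were on hand for 23 of the 29 members, with 33 windows in all. Capitals mark the motifs searched on both strands: the sterol regulatory element TCACNCCAC and the NF-Y box CCAAT, which reads ATTGG on the other strand. The 2 motifs do not overlap in these windows. The Dhcr7 window is the one of its 3 that holds a match.
Hmgcs1, chr13:119690101-119690400, plus strand: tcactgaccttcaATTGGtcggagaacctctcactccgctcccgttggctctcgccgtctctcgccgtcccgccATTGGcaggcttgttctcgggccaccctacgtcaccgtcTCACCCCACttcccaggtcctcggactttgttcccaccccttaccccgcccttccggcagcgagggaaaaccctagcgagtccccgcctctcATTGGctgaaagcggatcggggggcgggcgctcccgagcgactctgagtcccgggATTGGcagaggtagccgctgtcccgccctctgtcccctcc
Dhcr7, chr7:143829964-143830263, plus strand: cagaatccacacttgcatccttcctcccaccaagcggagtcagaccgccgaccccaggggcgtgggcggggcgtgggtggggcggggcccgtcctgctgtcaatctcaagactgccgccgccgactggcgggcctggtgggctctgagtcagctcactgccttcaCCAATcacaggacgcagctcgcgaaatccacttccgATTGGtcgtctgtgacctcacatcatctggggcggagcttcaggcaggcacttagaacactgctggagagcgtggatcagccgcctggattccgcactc
Cyp51, chr5:4104648-4104947, minus strand: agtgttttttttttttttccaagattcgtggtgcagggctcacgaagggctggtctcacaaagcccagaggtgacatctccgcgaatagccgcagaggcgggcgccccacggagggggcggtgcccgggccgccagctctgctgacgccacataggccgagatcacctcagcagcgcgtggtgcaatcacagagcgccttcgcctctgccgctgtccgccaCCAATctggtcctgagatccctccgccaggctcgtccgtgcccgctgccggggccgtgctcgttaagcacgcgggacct
Insig1, chr5:28071162-28071461, plus strand: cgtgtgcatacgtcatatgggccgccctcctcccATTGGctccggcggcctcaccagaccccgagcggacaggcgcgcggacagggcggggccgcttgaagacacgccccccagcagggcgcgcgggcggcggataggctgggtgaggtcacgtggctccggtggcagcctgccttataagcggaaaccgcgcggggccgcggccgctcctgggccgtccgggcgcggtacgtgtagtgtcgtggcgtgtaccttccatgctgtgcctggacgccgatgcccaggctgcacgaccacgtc
The sterol regulatory element in this spelling occurred in 1 member window, that of Hmgcs1, where it starts 137 bases before the transcript start. It occurred in 1.24% of all 32851 promoter windows. CCAAT occurred in 20 of the 33 member windows, belonging to 19 of 23 genes, against 37.4% of all windows. Dhcr7 has its 2 matches 85 and 49 bases before the start, Cyp51 its single match 29 bases and Insig1 its single match 216 bases before the start. The LXR element, a spaced direct repeat, was found in 0 member windows and in 0.0152% of all windows. A match is a description of the letters and shows no binding.

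Bound against unbound arrays asked which of these messages the oligodendrocyte pull-down enriched. Of the 29 members, 21 were higher in the bound arrays, 7 were lower and Nsdhl was not called. Across all genes 83.6% were called, 25.5% higher and 58.1% lower. The members' median difference was 0.47 log2, against −0.35 log2 for all genes tested. In such bulk fractions, fewer cells of a type and less RNA per cell cannot be told apart. In both fractions every member lay above the middle of all probe sets: Tm7sf2 was the dimmest, at the 53rd percentile of bound and the 52.1st percentile of unbound means.

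In the probe sets used, the 7 measured enzymes from acetyl-CoA to squalene were all higher in the bound arrays, by 0.16 to 0.77 log2. Fdps, which makes farnesyl diphosphate, led them. Its per-animal bound minus unbound difference had a lowest value of 0.23, a median of 0.70 and a highest of 1.86 log2 (mean 0.77 ± 0.09, SE, n = 18, adjusted p = 8.01e-08), and it was positive in every animal. Idi1, the isomerase that readies isoprenoid units, followed at 0.47 ± 0.06 log2 (adjusted p = 6.03e-07) and Pmvk, phosphomevalonate kinase, at 0.34 ± 0.05 log2 (adjusted p = 1.43e-06). Hmgcs1, which makes HMG-CoA, had the smallest difference of the early enzymes in the probe sets used. Its difference of 0.16 ± 0.02 log2 was nevertheless positive in 18 of 18 animals (adjusted p = 2.55e-06). The further bright probe sets of Hmgcs1 stood higher, at 0.38, 0.27 and 0.27 log2. Those of Idi1 and Mvk were positive too, at 0.83 and 0.14 log2. That of Mvd had the opposite sign, at −0.12 log2, and those of Fdft1 were divided, at 0.16, −0.08 and −0.16 log2. Fdft1, squalene synthase, stood at 0.19 ± 0.07 and Mvk, mevalonate kinase, at 0.22 ± 0.09 log2, and both lost the call without the 3 animals set apart by Xist (adjusted p = 0.0904 and 0.0812).

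The enzymes from squalene to cholesterol were divided, with 6 higher, 3 lower and 1 not called. Ebp, the sterol isomerase, was 1.69 ± 0.15 log2 higher (adjusted p = 1.66e-09), with per-animal differences between 0.66 and 3.13. Dhcr7, the last reductase before cholesterol, was 1.56 ± 0.08 log2 higher (adjusted p = 2.62e-13). Lss, which closes the sterol rings, was 1.12 ± 0.08 log2 higher (adjusted p = 3.33e-11). For Dhcr7 and Lss the 18 bound values did not overlap the 18 unbound values, whereas for Ebp the ranges overlapped. How many of all genes lack such an overlap was not counted. On the lower side, Hsd17b7, a sterol ketoreductase, stood at −0.75 ± 0.09 log2 (adjusted p = 3.18e-07) and was below 0 in all 18 animals. Tm7sf2, a sterol reductase, stood at −0.57 ± 0.12 (adjusted p = 0.000247) and Sqle, squalene epoxidase, at −0.38 ± 0.10 log2 (adjusted p = 0.00105). Relative to the median of all genes Tm7sf2 was at −0.22 and Sqle at −0.03 log2, and quantile normalization over all arrays gave 0.11 for Tm7sf2 and −0.04 for Sqle with neither called. Cyp51 at 0.70 ± 0.07 and Msmo1, a sterol methyl oxidase, at 0.53 ± 0.10 log2 were among the 6, but the mean of all their probe sets gave −0.01 and −0.30 log2. Their dimmer probe sets stood at −0.27 and −0.45 for Cyp51 and at −1.13 for Msmo1, the last with a mean signal of 4.61 log2. Nsdhl, a sterol dehydrogenase, had a difference of 0.01 ± 0.12 log2, positive in 9 of 18 animals.

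**Figure D1:**
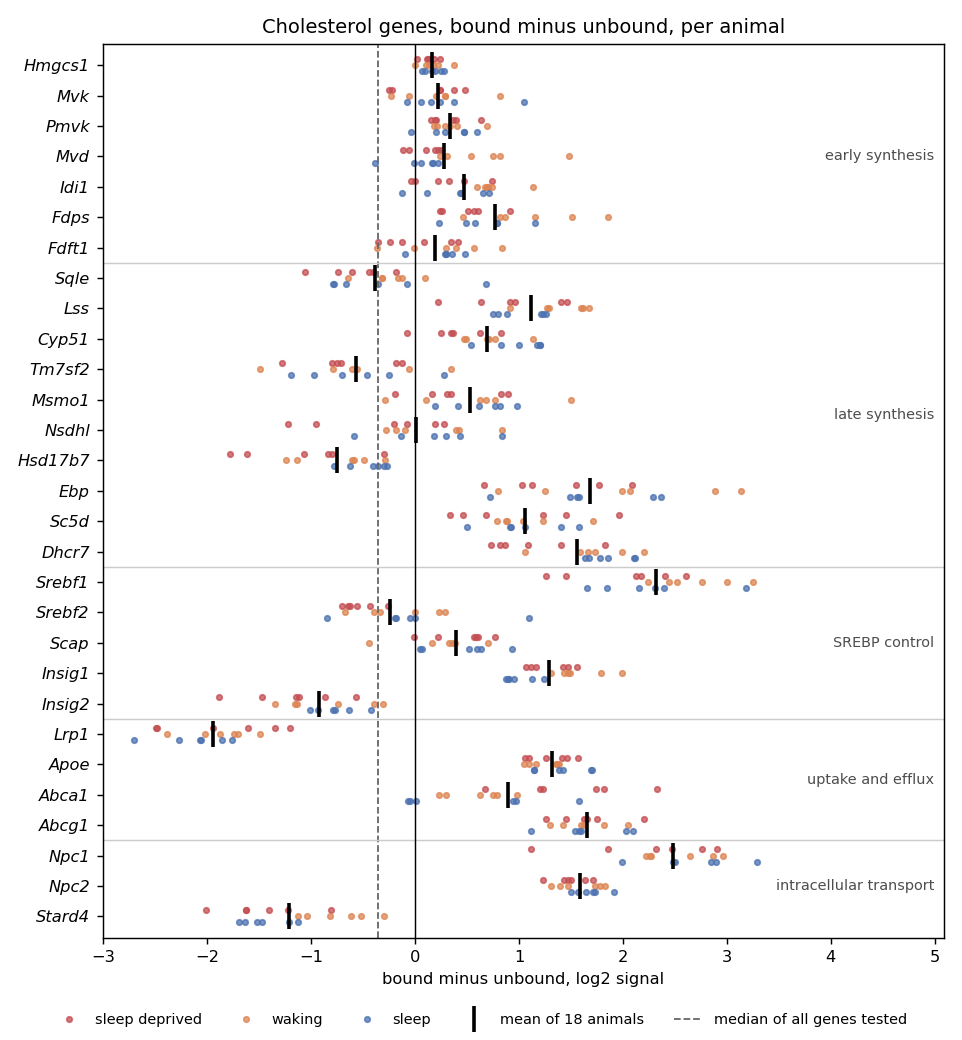
Bound minus unbound log2 signal of the 29 measured members, 1 point per animal (6 per state), with the mean of 18 animals as a black bar and the median of all genes tested (−0.35) as a dashed line. Npc1 and Srebf1 lie farthest to the right at means of 2.48 and 2.32, and Lrp1 farthest to the left at −1.94.

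Within the SREBP system Srebf1 and Srebf2, and likewise Insig1 and Insig2, had differences of opposite sign in the deposited values, of which that of Srebf2 turned under quantile normalization. Srebf1, which encodes the SREBP form best known for fatty acid genes, had per-animal differences of 1.26 at the lowest, 2.35 at the median and 3.26 log2 at the highest. Its mean was 2.32 ± 0.12 log2 (adjusted p = 1.16e-13), a 5-fold higher signal. No bound array overlapped an unbound one, which was not counted over all genes. Srebf2, which encodes the form best known for cholesterol genes, differed by −0.24 ± 0.10 log2 (adjusted p = 0.0346). Its per-animal values ran between −0.84 and 1.10, with 14 of 18 below 0. That direction is not firm: relative to the median of all genes the difference was 0.12, after quantile normalization over all arrays it was 0.04 log2, and the call was lost without the 3 animals (adjusted p = 0.0873).

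Insig1 had per-animal differences of 0.87, 1.27 and 1.99 log2 at the lowest, median and highest animal, with a mean of 1.29 ± 0.05 (adjusted p = 3.11e-15). Insig2 had −1.89, −0.90 and −0.31 log2 at the same points, with a mean of −0.93 ± 0.09 (adjusted p = 5.46e-09). Neither gene showed overlap between the 18 bound and the 18 unbound arrays, a trait that was not counted over all genes. The 2 went in opposite directions in every animal. The 2 further probe sets of Insig2 differed by −1.09 and −0.79 log2. Scap, the escort protein, was 0.39 ± 0.09 log2 higher in bound arrays (adjusted p = 0.000343), but the mean of its 2 probe sets gave −0.38 log2, because the second, dim probe set differed by −1.16.

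Uptake and efflux genes also fell on both sides. Lrp1, a large lipoprotein receptor of neurons and glia, was lower in the bound arrays in all 18 animals, with per-animal differences of −2.71 to −1.20 log2 (mean −1.94 ± 0.10, adjusted p = 3.49e-13). Abcg1, a sterol exporter, was higher by 1.65 ± 0.07 log2 (adjusted p = 1.84e-14) and Abca1, which loads sterol onto apolipoproteins, by 0.89 ± 0.13 log2 (adjusted p = 1.62e-06). Apoe, the main apolipoprotein of brain, known as an astrocyte product, was 1.32 ± 0.06 log2 higher in bound arrays (adjusted p = 2.9e-14). Its per-animal values were 1.05, 1.36 and 1.71 log2 at the lowest, median and highest animal. The bound values of Apoe did not overlap the unbound ones, again a trait not counted over all genes. On the same arrays all 8 astrocyte markers were lower in the bound fraction, by −2.64 to −1.21 log2.

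Of the genes that move sterol inside the cell, both lysosomal exporters were enriched. Npc1 was 2.48 ± 0.11 log2 higher in the bound arrays (adjusted p = 1.2e-14), with a lowest per-animal difference of 1.12 and a highest of 3.29. Npc2 was 1.59 ± 0.04 log2 higher (adjusted p = 7.33e-18). Stard4, a soluble sterol carrier, stood at −1.21 ± 0.08 log2 (adjusted p = 1.16e-11), with all 18 animals between −2.01 and −0.30. None of the 3 overlapped between fractions, a trait that was not counted over all genes. Among all members, 15 had further probe sets bright enough to read, and 22 of those 27 probe sets differed in the same direction as the one used.

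Sleep deprivation against sleep in the bound arrays asked which messages of the oligodendrocyte fraction differed after enforced wake in the light period. Of the 29 members, 3 fell and 0 rose, against 14.4% of all genes called, 7.53% higher and 6.87% lower. The 3 were Dhcr7, Cyp51 and Mvk. All are among the 17 synthesis enzymes tested, of which 17.6% were thus called, near the share of all genes. The members' median was −0.16 log2 with 21 of 29 below 0, and that of all genes was −0.01 log2 with 7097 of 13924 below 0.

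Dhcr7 in bound arrays had 10.14, 10.23 and 10.55 log2 at the lowest, median and highest sleep deprived animal, against 10.73, 10.81 and 11.17 in sleep animals. Every sleep deprived animal lay under every sleep animal. The difference was −0.63 ± 0.12 log2 (SE, n = 6 per group, adjusted p = 0.00138), a 1.55-fold lower signal, and it was −0.61 (adjusted p = 0.00562) without the 3 animals.

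Cyp51, the lanosterol demethylase, had 9.51, 10.03 and 10.33 log2 in bound arrays of sleep deprived animals, against 10.21, 10.37 and 10.45 in sleep animals (lowest, median and highest). The ranges overlapped, but all 6 sleep deprived animals lay under the sleep mean. It fell by 0.37 ± 0.11 log2 (adjusted p = 0.0369), and its 2 dimmer probe sets stood at −0.43 and −0.64. Mvk had 7.77, 8.08 and 8.18 log2 in sleep deprived animals against 8.13, 8.45 and 8.61 in sleep animals. It fell by 0.37 ± 0.11 log2 as well (adjusted p = 0.0286), again with all 6 animals under the sleep mean and a slight overlap. Without the 3 animals neither was called, at an adjusted p of 0.0775 for Cyp51 and 0.0503 for Mvk.

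None of the SREBP control genes was called in this comparison. Srebf1 had 7.77, 8.25 and 9.17 log2 in bound arrays of sleep deprived animals, against 8.33, 8.71 and 9.03 in sleep animals, a difference of −0.36 ± 0.19 (adjusted p = 0.238). Srebf2 had 7.97, 8.58 and 8.74 log2 in sleep deprived animals against 8.45, 8.79 and 9.00 in sleep animals, a difference of −0.24 ± 0.16 (adjusted p = 0.345). Both ranges overlapped widely. Insig1 differed by −0.16 ± 0.09 (adjusted p = 0.243) and Insig2 by −0.16 ± 0.17 log2 (adjusted p = 0.59). Among the early and late enzymes, Hmgcs1 had the smallest spread and differed by −0.01 ± 0.05 (adjusted p = 0.941), and Sqle differed by −0.24 ± 0.19 log2 (adjusted p = 0.443). Apoe differed by −0.03 ± 0.13 log2 (adjusted p = 0.917). Abca1 had the highest difference of any member, 0.52 ± 0.24 log2, which was not called (adjusted p = 0.154).

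Averaging all probe sets of a gene gave 6 lower members in place of 3, adding Hsd17b7, Lss, Msmo1 and Stard4 and dropping Mvk. For Msmo1 the probe set used stood at −0.24 log2 and its second at −0.79, with a mean signal of only 4.61 log2. For Lss the probe set used stood at −0.17, another at −0.34 and the dimmest, with a mean signal of 6.12 log2, at −1.01. Over the myelin list the mean level in bound arrays was 12.97 log2 (12.84 to 13.04) after sleep deprivation and 13.01 log2 (12.99 to 13.04) in sleep.

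**Figure D2:**
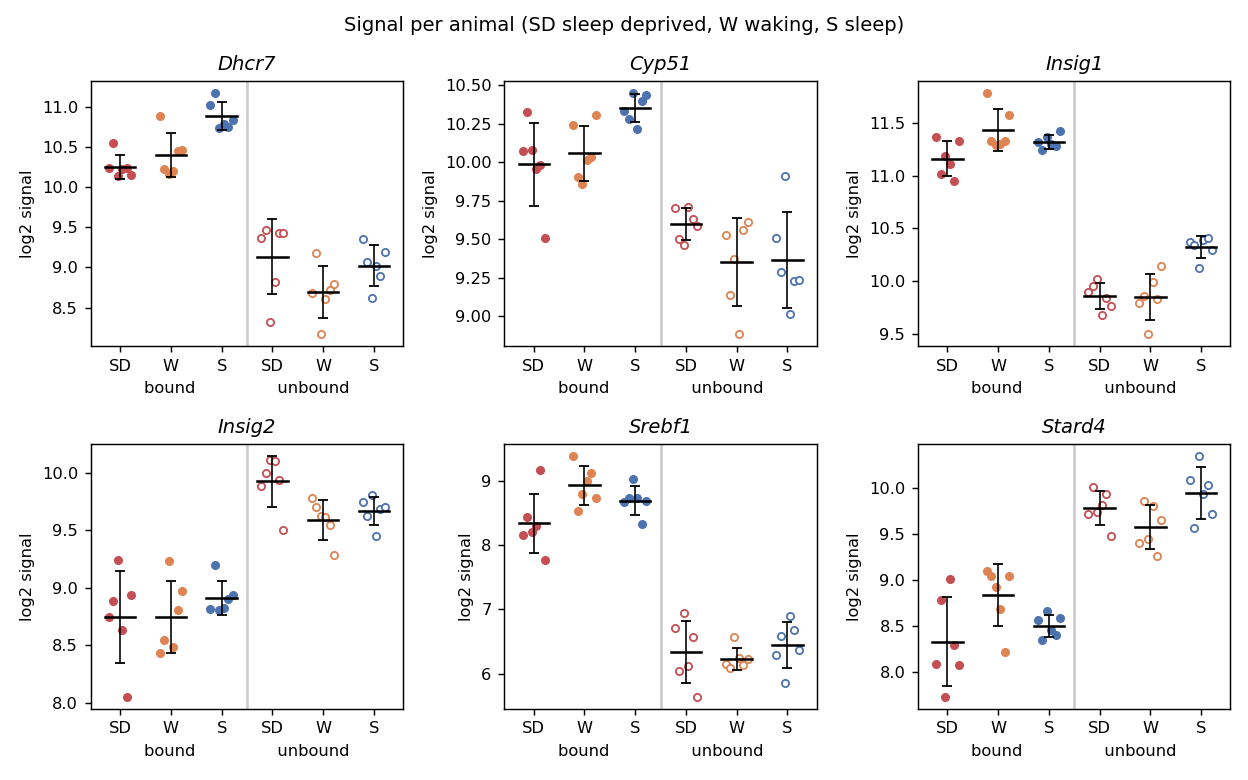
Log2 signal per animal of 6 members in bound (filled) and unbound (open) arrays of sleep deprived (SD), waking (W) and sleep (S) animals, with the mean and standard deviation of 6 animals. Bound Dhcr7 in sleep deprived animals (10.14 to 10.55) lies below all sleep animals, and unbound Insig1 in sleep deprived animals (9.68 to 10.02) lies below all sleep animals too.

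Waking against sleep in the bound arrays compared spontaneous wake at night with daytime sleep. It gave 1 higher and 3 lower members of 29, against 9.47% of all genes called, 4.68% higher and 4.79% lower. The members' median of 0.002 log2 was close to that of all genes, −0.01 log2. Dhcr7 had the largest difference of any member. It had 10.16, 10.34 and 10.89 log2 in bound arrays of waking animals, against 10.73, 10.81 and 11.17 in sleep animals. One waking animal lay within the sleep range and 5 of 6 lay under the sleep mean, with a difference of −0.49 ± 0.12 log2 (adjusted p = 0.0134).

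Sc5d, which inserts a double bond late in the pathway, had 9.09, 9.44 and 9.67 log2 in bound arrays of waking animals and 9.52, 9.84 and 10.04 in sleep animals. It fell by 0.41 ± 0.12 log2 (adjusted p = 0.0384) with a small overlap, whereas its 2 dimmer probe sets stood at 0.19 and 0.22. Idi1 had 10.95, 11.30 and 11.43 log2 in waking animals against 10.45, 10.98 and 11.07 in sleep animals. It rose by 0.39 ± 0.12 log2 (adjusted p = 0.0463), whereas its second probe set stood at −0.32. Npc2 had 11.94, 12.04 and 12.35 log2 in waking animals against 12.25, 12.34 and 12.43 in sleep animals. It fell by 0.26 ± 0.08 log2 (adjusted p = 0.0435), and its 2 further bright probe sets stood at −0.24 and −0.19. Without the 3 animals none of the 4 calls held (adjusted p = 0.0715 for Dhcr7, 0.063 for Sc5d, 0.0633 for Idi1 and 0.165 for Npc2), and of all genes 684 in place of 1318 were called.

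The other genes described in full were not called. Srebf1 had 8.54, 8.90 and 9.40 log2 in bound arrays of waking animals against 8.33, 8.71 and 9.03 in sleep animals, a difference of 0.24 ± 0.19 (adjusted p = 0.485). Srebf2 differed by 0.01 ± 0.16 (adjusted p = 0.977), Insig1 by 0.11 ± 0.09 (adjusted p = 0.467) and Insig2 by −0.16 ± 0.17 log2 (adjusted p = 0.603). Apoe had 8.96, 9.59 and 9.78 log2 in waking and 9.55, 9.80 and 10.13 in sleep animals. All 6 waking animals lay under the sleep mean of Apoe, with a difference of −0.32 ± 0.13 that was not called (adjusted p = 0.119). Hmgcs1 differed by −0.14 ± 0.05 (adjusted p = 0.106) and Sqle by 0.00 ± 0.19 log2 (adjusted p = 0.995). The further bright probe sets of Hmgcs1 stood at −0.06, 0.06 and 0.24 log2.

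Sleep deprivation against waking in the bound arrays set enforced against spontaneous wake. Its groups also differ in clock time, light period against dark phase, as they do in the unbound arrays, and state and time of day cannot be told apart. limma called 0 of 29 members, against 5.01% of all genes (2.69% higher, 2.32% lower), and 7 members had an unadjusted p below 0.05. Quantile normalization over all arrays or within each fraction called Insig1, and the mean of all probe sets called Msmo1. The dim second probe set of Msmo1 stood at −1.34 log2 here and the one used at −0.22. The members' median was −0.14 log2 with 21 of 29 below 0. For all genes it was 0.01 log2. The 2 members closest to a call were Insig1 and Srebf1. Insig1 had 10.95, 11.14 and 11.36 log2 in bound arrays of sleep deprived animals against 11.29, 11.33 and 11.78 in waking animals, a difference of −0.28 ± 0.09 (adjusted p = 0.0802). Srebf1 differed by −0.59 ± 0.19 log2 (adjusted p = 0.083), and the sleep deprived group held both the lowest animal, at 7.77, and one at 9.17 within the waking range. Hmgcs1 at 0.14 ± 0.05 and Apoe at 0.30 ± 0.13 log2 lay on the other side (adjusted p = 0.164 and 0.195).

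**Figure D3:**
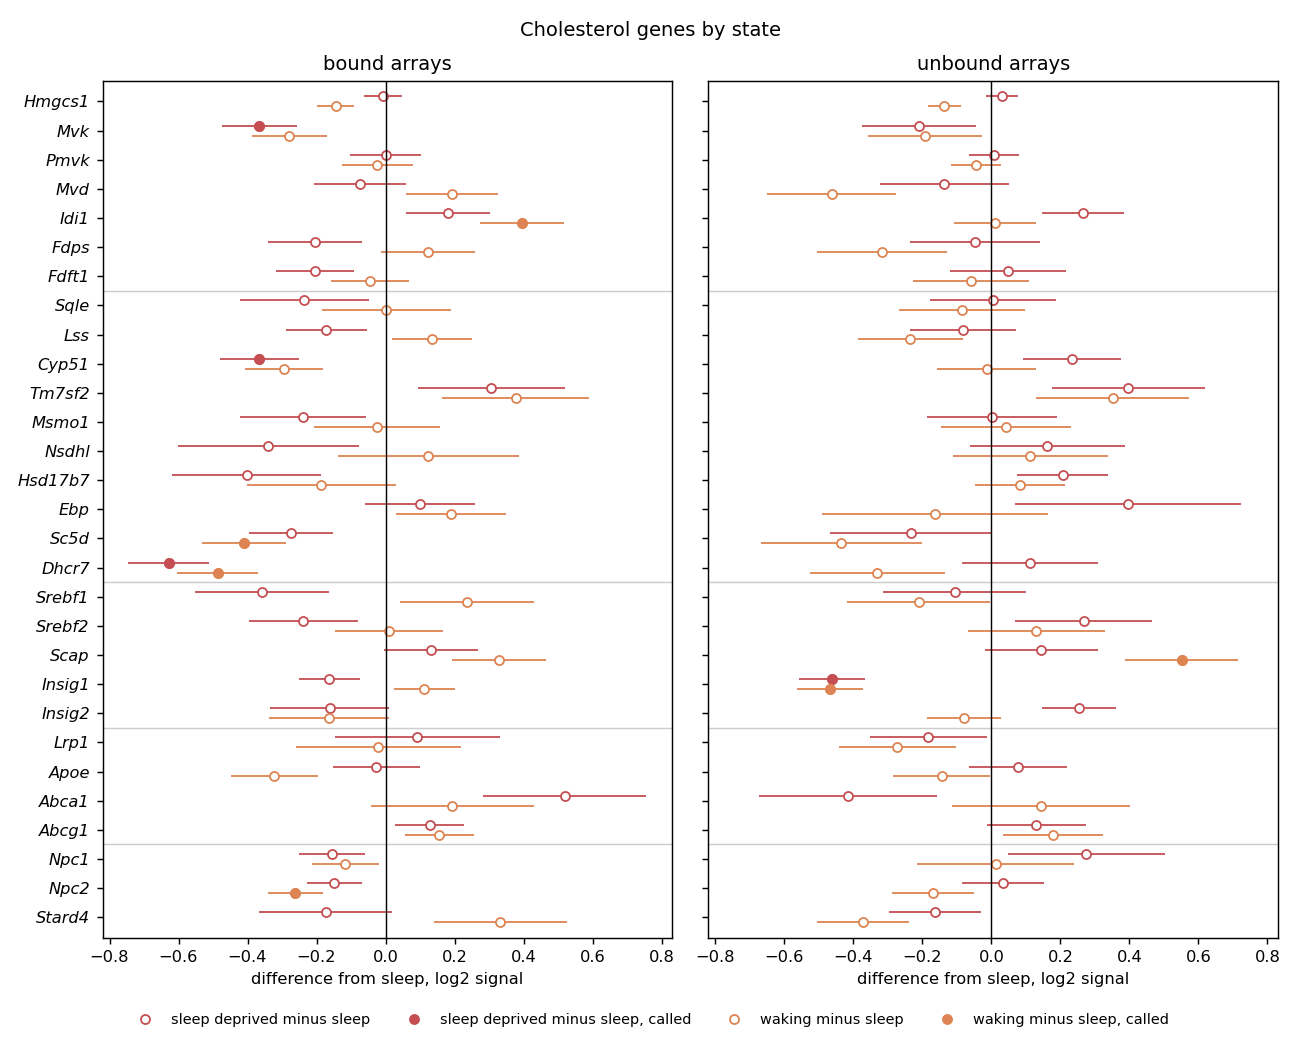
Differences from sleep in log2 signal for the 29 measured members, sleep deprived (red, upper) and waking (orange, lower), in bound (left) and unbound (right) arrays, with standard errors from 6 animals per group and filled points where called. Bound Dhcr7 lies farthest to the left at −0.63 and −0.49, and in the unbound panel Insig1 stands at −0.46 and −0.47 in both contrasts.

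In the unbound arrays Insig1 was called lower than sleep both after sleep deprivation and in waking. It had 9.68, 9.87 and 10.02 log2 in sleep deprived animals and 9.50, 9.84 and 10.15 in waking animals, against 10.13, 10.36 and 10.41 in sleep animals. All sleep deprived animals lay under all sleep animals, and waking animals overlapped them only at the edge. The difference was −0.46 ± 0.10 log2 after sleep deprivation (adjusted p = 0.0055) and −0.47 ± 0.10 in waking (adjusted p = 0.00635), with 6 of 6 animals under the sleep mean in each. These 2 comparisons share the 6 sleep animals. Without the 3 animals the calls held, at an adjusted p of 0.00595 and 0.0349. Insig1 has a single probe set on this platform. As an oligodendrocyte-enriched message it was read here beside the myelin markers, whose mean level in unbound arrays was 10.38 log2 (10.32 to 10.50) after sleep deprivation, 10.12 log2 (9.85 to 10.33) in waking and 10.41 log2 (10.31 to 10.44) in sleep. Their part in the waking result was not tested. Of the 10 myelin markers in unbound arrays, 2 rose and 1 fell after sleep deprivation, and in waking 1 rose and 3 fell with a median difference of −0.20 log2.

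Sleep deprivation against sleep in the unbound arrays called no member but Insig1, against 7.82% of all genes (4.65% higher, 3.17% lower). The members' median was 0.03 log2 and that of all genes 0.02 log2. Insig2 had 9.51, 9.97 and 10.11 log2 in unbound arrays of sleep deprived animals against 9.45, 9.69 and 9.81 in sleep animals. The difference of 0.25 ± 0.11 was not called (adjusted p = 0.164). Sleep deprived 11, one of the 3 animals, was the lowest of its group, and without the 3 animals the difference was 0.34 log2 and called (adjusted p = 0.0485). Srebf1 (−0.11 ± 0.21, adjusted p = 0.816), Srebf2 (0.27 ± 0.20, adjusted p = 0.462), Dhcr7 (0.11 ± 0.20, adjusted p = 0.791), Sqle (0.01 ± 0.18, adjusted p = 0.992) and Apoe (0.08 ± 0.14, adjusted p = 0.802) were not called either.

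Waking against sleep in the unbound arrays called Insig1 and Scap, 2 of 29 members (1 higher, 1 lower) against 7.21% of all genes (1.49% higher, 5.72% lower). Scap had 7.78, 8.24 and 8.57 log2 in waking animals against 7.32, 7.68 and 7.95 in sleep animals. It rose by 0.55 ± 0.16 log2 (adjusted p = 0.0459) with all 6 waking animals above the sleep mean and a partial overlap. Its dim second probe set stood at −0.15, and without the 3 animals the call was lost (0.64 log2, adjusted p = 0.0569). The median of all genes stood at −0.09 log2 here, and that of the members at −0.08. Hmgcs1 differed by −0.14 ± 0.05 (adjusted p = 0.0845) and Dhcr7 by −0.33 ± 0.20 log2 (adjusted p = 0.321). Srebf1 (−0.21 ± 0.21, adjusted p = 0.578), Srebf2 (0.13 ± 0.20, adjusted p = 0.737), Insig2 (−0.08 ± 0.11, adjusted p = 0.709) and Apoe (−0.14 ± 0.14, adjusted p = 0.576) were not called either.

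Sleep deprivation against waking in the unbound arrays called 1 higher member, Hmgcs1, against 9.94% of all genes (8.45% higher, 1.49% lower). Hmgcs1 had 12.88, 12.97 and 13.15 log2 in sleep deprived and 12.72, 12.82 and 12.91 in waking animals. Its difference of 0.17 ± 0.05 log2 (adjusted p = 0.0322) was 0.06 relative to the median of all genes, which stood at 0.11 log2. After either quantile normalization, which brought that median to about 0, it was 0.06 log2 and not called (adjusted p = 0.558 and 0.557), and without the 3 animals it was not called either (adjusted p = 0.0896). Insig2 differed by 0.33 ± 0.11 log2 (adjusted p = 0.0557), with 5 of 6 sleep deprived animals above the waking mean. It was called without the 3 animals at 0.41 log2 (adjusted p = 0.0406). Dhcr7 at 0.44 ± 0.20 (adjusted p = 0.157), Srebf1 at 0.10 ± 0.21 (adjusted p = 0.794) and Insig1 at 0.005 ± 0.10 log2 (adjusted p = 0.982) were not called.

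Whether a state difference itself differed between the fractions was tested on the per-animal bound minus unbound values. For sleep deprivation against sleep, 25 of 29 members and 16 of 17 synthesis enzymes had a lower value in the bound fraction relative to the unbound one, against 7361 of 13924 genes. The members' median was −0.16 log2, and that of all genes −0.02 log2. Calls were few: 2 members, both lower, against 6.24% of all genes (3.03% higher, 3.21% lower). Bound minus unbound Dhcr7 was 0.73, 0.98 and 1.82 log2 in the lowest, median and highest sleep deprived animal, against 1.64, 1.82 and 2.11 in sleep animals. One sleep deprived animal reached into the sleep range. The difference between fractions was −0.74 ± 0.20 log2 (adjusted p = 0.03). For Cyp51 the values were −0.08, 0.36 and 0.83 log2 in sleep deprived animals against 0.54, 1.08 and 1.21 in sleep animals, a difference of −0.60 ± 0.16 (adjusted p = 0.0322). In unbound arrays the 2 dimmer probe sets of Cyp51 disagreed, at 0.87 and −0.59 log2. Without the 3 animals both missed the threshold (adjusted p = 0.0789 and 0.0717), and Hsd17b7, a further late enzyme, was called at −0.76 log2 (adjusted p = 0.0432). The opposite sign was largest for Abca1, at 0.93 ± 0.31 log2, which was not called (adjusted p = 0.0769).

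**Figure D4:**
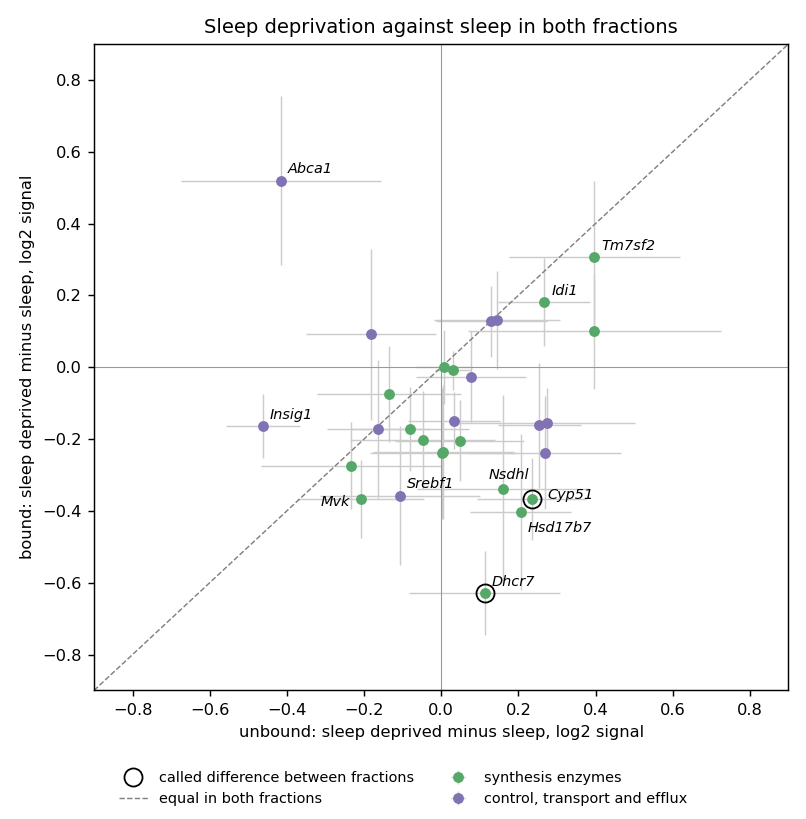
Sleep deprived minus sleep in log2 signal, bound (vertical) against unbound (horizontal), for the 29 measured members with standard errors, synthesis enzymes in green and the other members in purple. Points under the dashed line are lower in the bound fraction relative to the unbound one, as for 25 of 29 members, and the ringed genes Dhcr7 and Cyp51 are the 2 with a called difference between fractions.

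For waking against sleep the difference between fractions was called for 2 members, both higher, against 5.34% of all genes (3.94% higher, 1.4% lower). Insig1 had bound minus unbound values of 1.31, 1.48 and 1.99 log2 in the lowest, median and highest waking animal, against 0.87, 0.93 and 1.24 in sleep animals. No waking animal overlapped a sleep animal. The difference was 0.58 ± 0.12 log2 (adjusted p = 0.00988), still called without the 3 animals (adjusted p = 0.0433), and it combined a lower unbound signal with a bound signal that did not pass the test. Stard4 had −1.13, −0.72 and −0.30 log2 in waking animals against −1.69, −1.49 and −1.12 in sleep animals. Its difference was 0.70 ± 0.19 log2 (adjusted p = 0.0372), and it was lost without the 3 animals (adjusted p = 0.0987) and under both quantile settings (adjusted p = 0.0612 and 0.0613). Mvd, which forms isopentenyl diphosphate, had waking animals entirely above sleep animals at 0.66 ± 0.20 log2 and was not called (adjusted p = 0.0577), though it was without the filter (adjusted p = 0.0352) and without the intensity trend (adjusted p = 0.0387).

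Further probe sets of the same gene often differed in sign in the state comparisons. Of the 27 bright ones, 17 had the sign of the one used in bound sleep deprivation against sleep, 13 in bound waking against sleep, 18 in unbound sleep deprivation against sleep and 17 in unbound waking against sleep. Dhcr7, Insig1, Srebf1, Apoe, Sqle, Npc1, Ebp, Tm7sf2, Nsdhl and Pmvk have 1 probe set each and could not be checked in this way.

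Other genes of the pathway, drawn from a list of 36 with 30 tested, were read beside the members. In bound arrays 5 of the 30 rose and 1 fell after sleep deprivation, relative to sleep, against 14.4% of all genes called (7.53% higher, 6.87% lower). Lbr, a sterol reductase of the nuclear envelope, had 8.48, 8.69 and 8.90 log2 in sleep deprived animals against 7.63, 7.99 and 8.20 in sleep animals. It rose by 0.73 ± 0.14 log2 (adjusted p = 0.00167) without overlap. Ch25h, which makes an oxysterol that holds SREBP back, had 4.88, 4.93 and 5.01 log2 in sleep deprived animals against 4.09, 4.20 and 4.27 in sleep animals. All of these sleep values lie under the 4.47 log2 that the filter on level asked of bound arrays, and the unbound group means (4.75 after sleep deprivation, 4.99 in waking and 5.11 in sleep) lie under the 5.18 log2 asked of unbound arrays. Ch25h was thus tested only through the bound wake groups in which it is high, and although it is among the 5, its test is no support. Lipa, the lysosomal lipase that frees cholesterol, rose by 0.61 ± 0.14 log2 (adjusted p = 0.0079). Abca7, an efflux transporter (0.76 ± 0.23), the oxysterol-binding protein gene Osbpl1a (0.19 ± 0.06) and Nceh1, a cholesteryl ester hydrolase (−0.55 ± 0.16), passed too (adjusted p = 0.0309, 0.0338 and 0.026), but none of these 3 without the 3 animals (adjusted p = 0.0745, 0.0734 and 0.068).

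In bound waking against sleep, 2 of the 30 were called higher and 0 lower, against 9.47% of all genes. Lbr rose by 0.61 ± 0.14 log2 (adjusted p = 0.00996), a call lost without the 3 animals (adjusted p = 0.0565). The other was Ch25h, with 4.53, 4.64 and 4.86 log2 in waking animals, to which the same limit of the filter applies. Abca7 was the one pathway gene called between bound sleep deprivation and waking, at 0.87 ± 0.23 log2 (adjusted p = 0.0321; 0.134 without the 3 animals). In unbound arrays 3 of the 30 fell and 0 rose after sleep deprivation, relative to sleep, against 7.82% of all genes called. Cyp46a1, the hydroxylase through which neurons clear cholesterol, had 9.33, 9.84 and 10.14 log2 in sleep deprived animals against 10.09, 10.40 and 10.78 in sleep animals. It fell by 0.61 ± 0.13 log2 (adjusted p = 0.00558) with a slight overlap. Cyp27a1, a sterol hydroxylase, fell by 0.82 log2 to levels of 4.84 to 5.18 log2, under the 5.18 log2 that the filter asked of unbound arrays. Vldlr, a lipoprotein receptor, fell by 0.37 ± 0.09 log2 (adjusted p = 0.0121). Cyp27a1 also fell by 0.65 log2 in unbound waking against sleep, a call that was lost without the 3 animals (adjusted p = 0.102), and Mbtps2, a protease that cleaves SREBP, was 0.68 ± 0.17 log2 higher in unbound sleep deprivation than in unbound waking (adjusted p = 0.0167; 0.0662 without the 3 animals).

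The difference between fractions in sleep deprivation against sleep was called for 4 of the 30 pathway genes, 3 higher and 1 lower, against 6.24% of all genes. Abca7 (0.97 ± 0.25 log2) and Abca2, a sterol transporter of oligodendrocytes (0.68 ± 0.17), were higher in the bound relative to the unbound fraction, and Mbtps2 was lower (−0.96 ± 0.22). Their adjusted p-values were 0.0269, 0.0208 and 0.0104. The fourth was Ch25h, again with the limit of the filter. Without the 3 animals Abca7 and Abca2 fell short of a call (adjusted p = 0.0582 and 0.0541). For waking against sleep 1 of the 30 was called, against 5.34% of all genes: Lcat, a cholesterol-esterifying enzyme, at −1.18 ± 0.34 log2 (adjusted p = 0.0478; 0.0923 without the 3 animals). In the plain comparison of bound with unbound arrays, 11 of the 30 were higher and 14 lower, against 25.5% and 58.1% of all genes. Among them were Apod, an apolipoprotein, at 2.38 ± 0.04 and Abca2 at 2.32 ± 0.07 on the higher side (adjusted p = 9.81e-22 and 3.97e-17), and Lrp8, a neuronal lipoprotein receptor, at −2.24 ± 0.13 and Cyp46a1 at −2.14 ± 0.11 on the lower side (adjusted p = 3e-12 and 1.25e-13).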

How the data were processed

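Messages of the bound and unbound forebrain fraction of 18 mice were measured on 36 expression arrays. Each deposited value is a log2 signal of 1 probe set; the submitters' processing notes name RMA, without a version, as the authors' method. No further scaling was applied. The members and gene lists were chosen with earlier results of these data known. Of 45101 probe sets, 34945 name 1 gene in the platform annotation. The probe set with the highest mean was kept for each of 18193 genes, and 13924 of them were tested, those whose mean in either fraction was not under its 40th percentile over probe sets (4.47 log2 bound, 5.18 log2 unbound).

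Tests used limma 3.58.1 (R 4.3.3) with an intensity trend and Benjamini-Hochberg adjustment over all genes tested, called below 0.05. States were compared in the 18 arrays of a fraction. For fractions, and for state differences between fractions, the unbound value of each animal was taken from its bound value first, because the study took both fractions from 1 animal and the labels number them alike. Their deviations from the group means correlated by −0.0032 to 0.0848 (mean 0.0458). The fits were also run on simulated data, with noise drawn independently for each array. Such data hold no scaling by group, so they cannot show how normalizing groups apart would affect the calls. Full values are given for members called in a state comparison and for Srebf1, Srebf2, Insig1, Insig2, Apoe, Hmgcs1, Sqle and Dhcr7, for the 3 most enriched and 3 most depleted per role between fractions, and for other pathway genes that were called. Abca1, Mvd and the genes called only under an alternative were named after their values were seen. Alternatives were 2 quantile normalizations, the mean of a gene's probe sets, no filter, no trend, leaving out the 3 animals set apart by Xist, and the replicate block. Figures were drawn with matplotlib 3.10.9.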

Additional observations from a re-analysis of the deposited data

Results flagged for a closer look

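Of 174 groups of 6 arrays (29 members in 6 groups), 12 held an animal far from the other 5, where chance alone gives about 1 in 20. In bound arrays these were Pmvk in sleep deprived 10 (11.78 log2, others 11.28 to 11.42), Dhcr7 in sleep deprived 7 (10.55, others 10.14 to 10.24), Srebf2 in sleep deprived 10 (7.97, others 8.47 to 8.74), Lrp1 in waking 6 (5.68, others 6.19 to 6.42), Fdps in sleep 2 (9.01, others 9.50 to 9.72) and Insig2 in sleep 2 (9.20, others 8.80 to 8.93). In unbound arrays they were Insig2 in sleep deprived 11 (9.51 log2, others 9.88 to 10.11), Srebf1 in waking 3 (6.56, others 6.09 to 6.25), Mvk in sleep 2 (7.55, others 8.11 to 8.32), Fdft1 in sleep 4 (10.51, others 11.00 to 11.28), Lss in sleep 4 (9.35, others 9.80 to 9.95) and Srebf2 in sleep 4 (7.75, others 8.81 to 9.29). Sleep 4 accounts for 3 of the 6 unbound cases, and sleep deprived 11 and waking 3 are among the 3 animals set apart by Xist.

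In 4 cases a state difference was not the same in the bound and the unbound fraction by the test of the difference itself. Against sleep, sleep deprivation gave −0.74 log2 for Dhcr7 and −0.60 log2 for Cyp51, and waking gave 0.58 log2 for Insig1 and 0.70 log2 for Stard4, each as the bound minus the unbound difference.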

How the results depend on the processing

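Counts of called members moved by more than 1.5 times as follows. Without the 3 animals set apart by Xist, bound waking against sleep gave 0 members in place of 4, bound sleep deprivation against sleep 1 in place of 3, unbound waking against sleep 1 in place of 2, unbound sleep deprivation against sleep 2 in place of 1, and the fraction differences 1 in place of 2 each. With the mean of all probe sets of a gene the counts were 1 for bound waking against sleep, 6 for bound sleep deprivation against sleep, 1 in place of 0 for bound sleep deprivation against waking, and 2 in place of 1 for unbound sleep deprivation against waking. Both quantile normalizations gave 1 in bound sleep deprivation against waking, 0 in unbound sleep deprivation against waking and 1 for the fraction difference of waking against sleep. Without the intensity trend, bound waking against sleep gave 2 and unbound sleep deprivation against waking 0. Without the filter, unbound sleep deprivation against waking gave 2. With the replicate number as a block, unbound waking against sleep gave 1; same-numbered waking and sleep arrays correlated by a mean of 0.0571 (bound) and 0.0338 (unbound), so they share only a number. Without the animal block (no pairing), the fraction difference of waking against sleep gave 1. Counts that moved by less were 3 in place of 4 for bound waking against sleep with the replicate block, and, without the animal block, 2 for the fraction difference of sleep deprivation and 28 for bound against unbound, as in the reported fits.

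Directions turned for Sc5d in bound waking against sleep (0.00133 log2) and, in bound against unbound, for Cyp51 (−0.00822), Msmo1 (−0.30) and Scap (−0.38) with the mean of all probe sets, and for Srebf2 (0.0409) and Tm7sf2 (0.11) with quantile normalization over all arrays. Where the mean of all probe sets turned a direction, the dimmer probe sets had the opposite sign to the one used. Why they differ, and what lies behind the other turns, was not tested. The bound minus unbound median of all genes was −0.35 log2 as deposited and 0.08 after that normalization. Of the 36 arrays, 6 per group limit what can be called, and a missed threshold does not show equal levels.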
